A study of Homo sapiens with 4 samples.

Results

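The genes described here are the ATF4 amino acid response and the cytosolic tRNA synthetases, measured on expression microarrays in HCT116 cells, a human line established from a colorectal carcinoma. The list names 47 genes. Every probe set (a group of array probes read as 1 signal) whose annotation gave a single gene symbol on the list was taken, and 46 of the 47 genes had at least 1, out of 19775 genes on the array. They have 99 probe sets: 16 genes have 1 and 30 have several, up to 5. MARS1, the methionyl-tRNA synthetase gene, has only probe sets annotated to MIR6758 as well and so has no value of its own. Cells received an siRNA against TET1 (2 arrays) or a control siRNA (2 arrays) in the same lipid reagent, in McCoy's 5A medium with serum. The TET1 protein is a dioxygenase acting on methylated cytosine in DNA, which it oxidises. The series asked which genes TET1 regulates in colorectal cancer cells, and its design text calls the samples biological duplicates. The labels give a single TET1 siRNA group, so loss of TET1 and other effects of the siRNA cannot be told apart, and all results are from 1 cell line.

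ATF4 is a transcription factor made when eIF2, a translation initiation factor, is phosphorylated. The kinase GCN2 (gene EIF2AK4) does this when uncharged tRNA accumulates, and PERK (gene EIF2AK3) does it when unfolded protein builds up in the endoplasmic reticulum. Translation then slows in general while ATF4 mRNA is translated more, so ATF4 activity is set largely by translation and its mRNA level is only part of the picture. With C/EBP partners, ATF4 binds a composite element and raises genes that make amino acids, import them and charge them onto tRNA, together with the regulators that later end the response. Tumour cell lines often use this program to supply serine, glycine and asparagine.

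The core of that composite element was searched in RefSeq promoter windows (GRCh38.p14, 250 bases before to 50 after an annotated start) as TGATGNAA on both strands, where N is any base. Windows were found for 39 of the 47 genes by symbol. In 17 of the 39 (43.6%) at least 1 window held the letters, against 4.46% of 27305 genes in the table and 2.9% of the 10106 genes that were both in the table and tested for expression. Counted per window of equal length, 17 of 64 windows of these genes held them (26.6%), against 3.62% of 35116 windows in all. Genes can have several starts, and the list was itself drawn from known ATF4 targets. The tRNA synthetase genes held the letters in 7 of 10, the transporter genes in 5 of 8, the regulators in 3 of 11, and the serine, glycine and folate enzyme genes in 0 of 3. A match of letters is a description and not a binding site.

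The windows shown are those of the tested synthetase genes that hold the letters, and of ASNS, ATF3, CHAC1 and SLC38A1, whose values follow. Most of these synthetase genes hold the letters close to the annotated start. MARS1 also holds them, but it has no value of its own and is not shown. Each window shown is 30 bases of the gene's own strand, 5′ to 3′. Capitals mark the match to TGATGNAA or, in the other orientation, to its reverse complement.
AARS1 (chr16:70289675-70289704, minus strand): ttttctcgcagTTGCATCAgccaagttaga
CARS1 (chr11:3057407-3057436, minus strand): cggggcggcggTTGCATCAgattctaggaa
GARS1 (chr7:30594834-30594863, plus strand): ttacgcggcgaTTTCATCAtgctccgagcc
IARS1 (chr9:92293692-92293721, minus strand): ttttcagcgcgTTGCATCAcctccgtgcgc
NARS1 (chr18:57621804-57621833, minus strand): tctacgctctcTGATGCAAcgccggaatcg
TARS1 (chr5:33440956-33440985, plus strand): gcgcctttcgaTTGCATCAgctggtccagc
ASNS (chr7:97872458-97872487, minus strand): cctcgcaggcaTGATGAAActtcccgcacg
ATF3 (chr1:212565205-212565234, plus strand): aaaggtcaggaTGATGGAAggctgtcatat
CHAC1 (chr15:40953251-40953280, plus strand): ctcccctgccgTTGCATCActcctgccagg
SLC38A1 (chr12:46266502-46266531, minus strand): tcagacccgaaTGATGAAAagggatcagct

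Signals are in arbitrary units on a linear scale, and precision is limited by having 4 arrays. Median signals were 13.9 and 14.4 on the TET1 siRNA arrays and 14.3 and 15.5 on the control siRNA arrays. The brighter TET1 probe set read 14.6 and 15 with TET1 siRNA, against 58.1 and 59.6 with control siRNA, so the arrays match their labels (log2 difference -1.28, limma adjusted p = 9.28e-04). The dimmer TET1 probe set read 6 and 8.9 with TET1 siRNA, against 18.2 and 35.5 with control siRNA. Tested by itself, it just missed the 0.05 threshold (-0.84, limma adjusted p = 0.0506). Of 10 markers of colon epithelium, EPCAM and the keratin genes KRT8, KRT18 and KRT19 lay above the 98th percentile of probe sets, whereas CDX2 and LGALS4 lay below the median. Of the 8 epithelial markers tested, 7 differences were above 0, against 6341 of all 12389 genes tested. KRT20, VIL1 and CEACAM5, among the 8, were dim and their groups overlapped. KRT8 rose (2889.5 and 3279 with TET1 siRNA, against 2517.5 and 2401.9 with control siRNA). CDH1 fell (474.8 and 394 with TET1 siRNA, against 925.1 and 1059 with control siRNA). Markers of fibroblasts, endothelium, lymphocytes and myeloid cells were mostly dim: 3 of 10, 2 of 10, 3 of 9 and 0 of 8 lay above the filter described next, and of these COL1A1 and ESAM rose. Their part in the results was not tested.

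Differences are given on the log2(signal + 16) scale as TET1 siRNA minus control siRNA, from a limma fit over all genes with 1 probe set a gene (that with the highest mean log2 signal). A gene was tested if its mean log2 value exceeded the median of all probe sets, and called at an adjusted p below 0.05. Of the 46 genes with a probe set, 41 were tested, and 12 of them rose (29.3%), 4 fell (9.76%) and 25 did not pass. Among all 12389 genes tested, 11.2% rose and 10.6% fell, so the share that fell is near that of all genes. Both TET1 siRNA arrays lay above both control arrays in 21 of the 41 (51.2%, against 30.9% of all genes) and below them in 11 (26.8%, against 28.1%). The median difference of the 41 genes was 0.18, against 0.0098 over all genes. All 16 called differences were under 1.5-fold on this scale, whereas 957 genes of the whole table were called at that size or more.

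**Figure D1:**
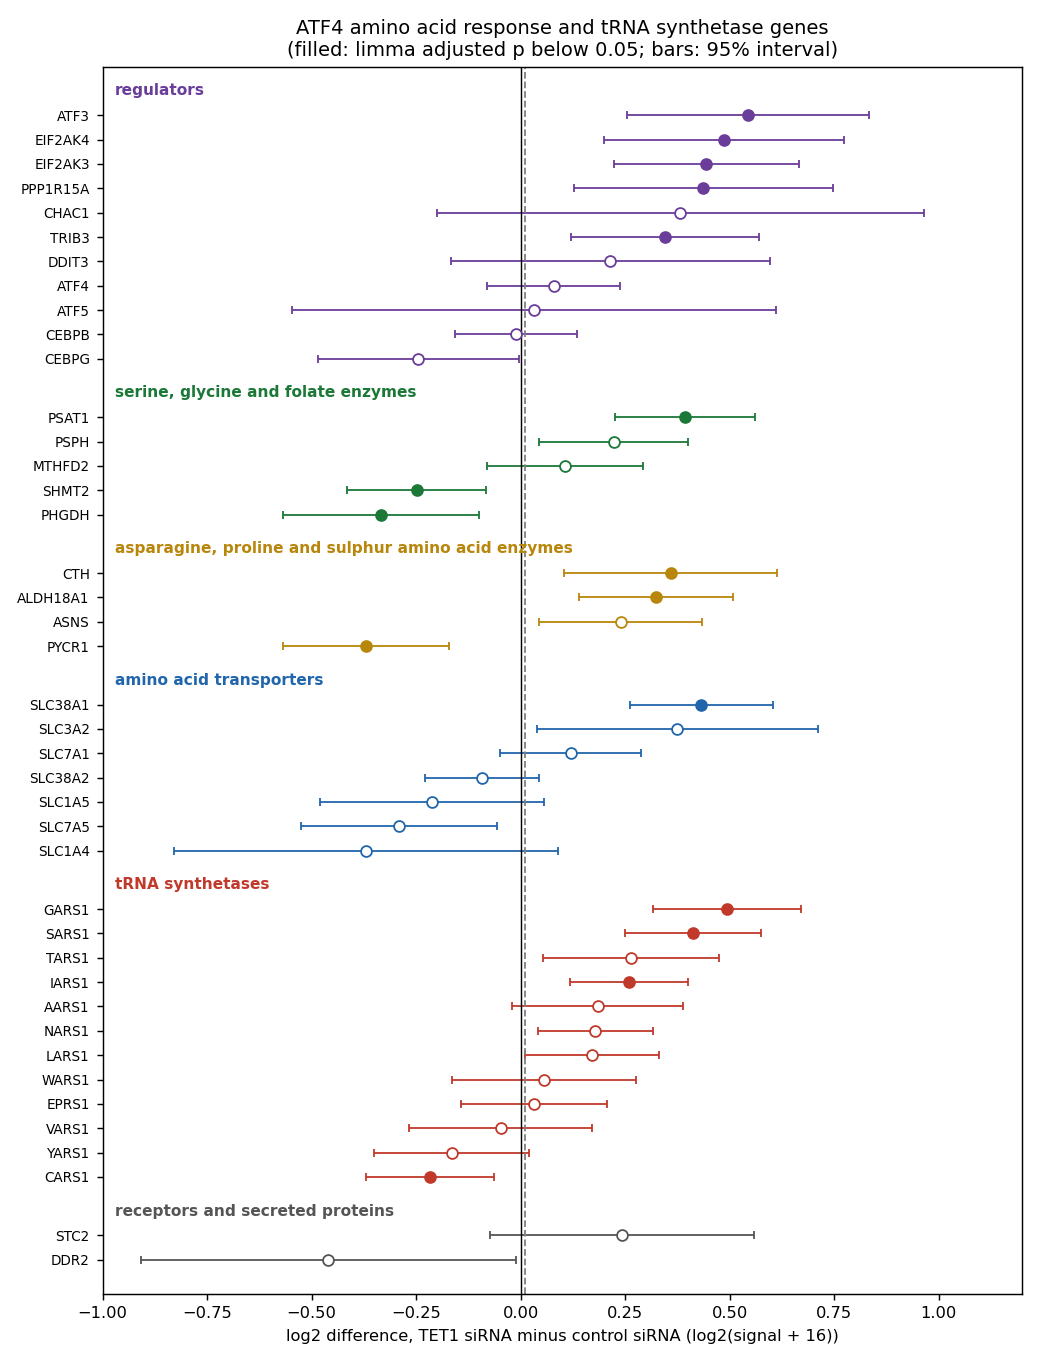
Log2 difference (TET1 siRNA minus control siRNA, log2(signal + 16) scale) of the 41 genes tested, by role, with 95% intervals from limma; filled points have an adjusted p below 0.05 and the dashed line is the median of all genes tested (0.0098). The 12 filled points right of 0 lie between 0.26 and 0.54, and the 4 left of 0 between -0.37 and -0.22.

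The calls rest on few arrays and on limma's variance model. Leaving out TET1 siRNA replicate 1 gave counts of 7 higher and 1 lower; without TET1 siRNA replicate 2 they were 8 and 0, without control siRNA replicate 1 9 and 0, and without control siRNA replicate 2 8 and 1. When the variance was not modelled on signal, none of the 41 passed in limma (15 had an unadjusted p below 0.05). PSAT1, SLC38A1, GARS1 and SARS1 passed whichever array was left out, while PHGDH, SHMT2, CARS1 and PPP1R15A missed the threshold without any 1 of the 4. EIF2AK3 was lost without TET1 siRNA replicate 1, and IARS1 without TET1 siRNA replicate 2. PYCR1 was lost without TET1 siRNA replicate 2 or control siRNA replicate 1, ALDH18A1 without TET1 siRNA replicate 1 or control siRNA replicate 2, and ATF3 without TET1 siRNA replicate 2 or control siRNA replicate 2. EIF2AK4 was lost without replicate 1 of either group, TRIB3 without either TET1 siRNA array or control siRNA replicate 2, and CTH without TET1 siRNA replicate 1 or either control array.

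Among the regulators, 5 of 11 tested rose (45.5%, against 11.2% of all genes) and none fell, with a median difference of 0.35. Averaging every probe set a gene has, none of the 5 passed: EIF2AK3 was then at 0.40 (limma adjusted p = 0.0633), PPP1R15A at 0.35, EIF2AK4 at 0.21, TRIB3 at 0.11 and ATF3 at -0.017. The genes of both eIF2 kinases on the list were among them. EIF2AK3, which encodes PERK, gave signals of 289.5 and 282.9 with TET1 siRNA, against 206.7 and 205.6 with control siRNA, and rose by 0.44 (SE 0.10, adjusted p = 0.00874). The groups were well apart and the 2 arrays of each group close together. EIF2AK4, which encodes the amino acid sensor GCN2, had 343.6 and 276.4 with TET1 siRNA, against 194.1 and 238.9 with control siRNA (log2 difference 0.49, SE 0.13, adjusted p = 0.0205). Its groups did not overlap but spread more, and a dimmer probe set of the gene stood at -0.058 (adjusted p = 0.884).

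Feedback genes downstream of ATF4 were the others that rose. ATF3, a stress-induced transcription factor, read 206.5 and 264.1 with TET1 siRNA, against 162.9 and 147.9 with control siRNA, the largest rise in the fit with 1 probe set a gene (0.54, SE 0.13, adjusted p = 0.0122). The other ATF3 probe sets did not show it: 1 stood at -0.0029 (adjusted p = 0.994), and a dim one read 7.2 and 8.9 with TET1 siRNA, against 21.7 and 18.8 with control siRNA (-0.59, adjusted p = 0.114). ATF3 rests on 1 probe set of 3. TRIB3, a pseudokinase that restrains ATF4, had 366.1 and 334 with TET1 siRNA, against 287.2 and 257.2 with control siRNA (0.35, SE 0.10, adjusted p = 0.0325), while its other probe set was at -0.12 (adjusted p = 0.782). PPP1R15A, which encodes GADD34, the phosphatase subunit that reverses eIF2 phosphorylation, had 111.5 and 128.7 with TET1 siRNA, against 84.7 and 84 with control siRNA (0.44, SE 0.14, adjusted p = 0.0462). The groups of both genes did not overlap, and the second PPP1R15A probe set had the same sign (0.26, adjusted p = 0.402).

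The ATF4 transcript itself did not pass. It gave 1834.7 and 1915.2 with TET1 siRNA, against 1684.1 and 1867.9 with control siRNA, and the groups overlapped (0.079, 95% interval -0.08 to 0.24, adjusted p = 0.50). DDIT3, which encodes the pro-apoptotic factor CHOP, read 141.2 and 103.7 with TET1 siRNA, against 87.8 and 118.6 with control siRNA, also overlapping (0.21, interval -0.17 to 0.60, adjusted p = 0.435). CHAC1, a glutathione-degrading enzyme gene and a sensitive ATF4 target, was dim on all arrays (19.5 and 19.7 with TET1 siRNA, 6.9 and 16.6 with control siRNA), and its interval ran from -0.20 to 0.96. The bZIP partners CEBPB (-0.011, adjusted p = 0.931) and CEBPG (-0.24, adjusted p = 0.141) did not pass, nor did ATF5 (0.033, adjusted p = 0.948). The CEBPG probe sets differed in sign, the other one standing at 0.11. NUPR1, a stress-induced chromatin protein gene, lay below the filter, with 13 and 13.9 against 9 and 8.8.

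**Figure D2:**
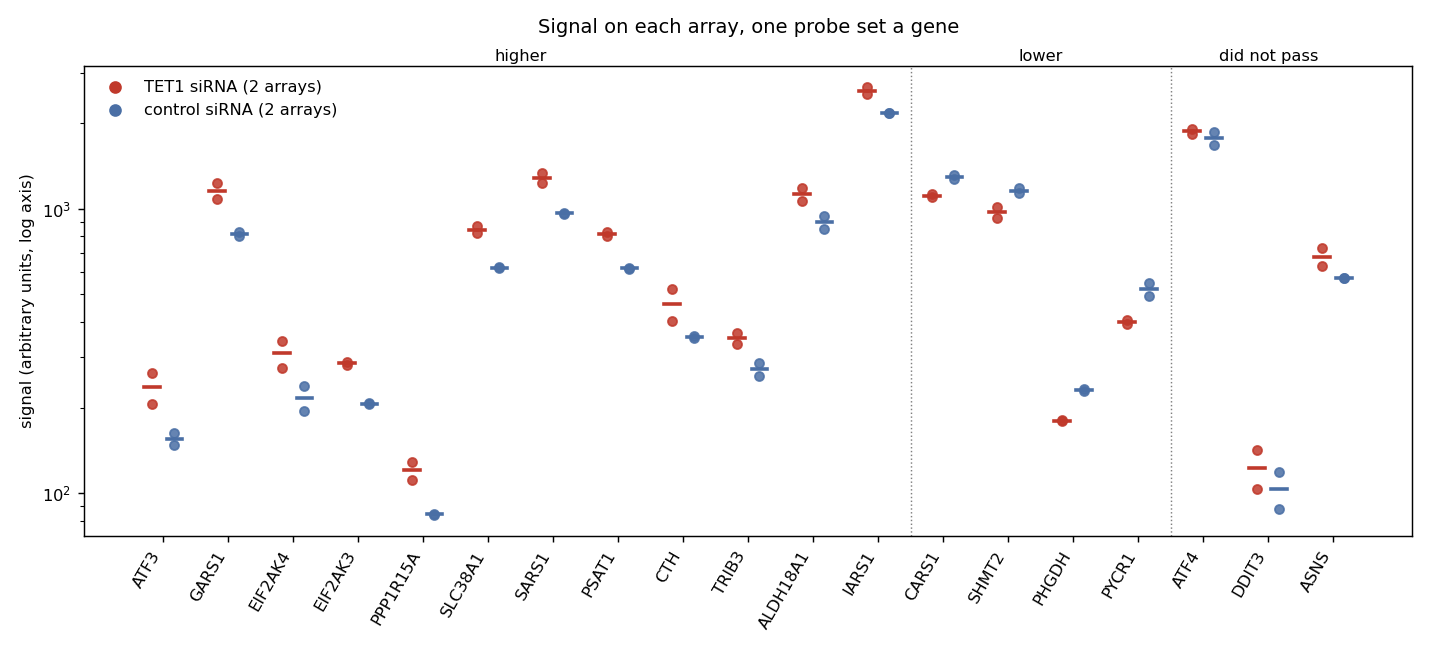
Signal on each array (arbitrary units, log axis) for the 16 genes past the threshold and for ATF4, DDIT3 and ASNS, 1 probe set a gene; points are arrays, bars are means of 2, TET1 siRNA left and control siRNA right. The groups do not overlap for any of the 16, which were called from these same arrays, nor for ASNS. They overlap for ATF4 and DDIT3. Among all genes tested, both TET1 siRNA arrays lay above both control arrays in 30.9% and below them in 28.1%.

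In serine synthesis PHGDH was called lower and PSAT1 higher, though the PHGDH call was lost whichever array was left out. PHGDH, the first enzyme of the pathway, read 180.4 and 178.8 with TET1 siRNA, against 228.8 and 232.4 with control siRNA, and fell (log2 difference -0.33, SE 0.11, adjusted p = 0.0444). PSAT1, the transaminase that acts after it, read 804.7 and 828 with TET1 siRNA, against 614.9 and 620.6 with control siRNA, and rose (0.39, SE 0.077, adjusted p = 0.00357). Both genes had tight, separate groups. A second PSAT1 probe set had the same sign when tested by itself and did not pass (0.22, limma adjusted p = 0.150). For PSPH, the phosphatase of the last step, the brighter probe set missed the threshold with 841.5 and 873.6 against 772.3 and 694.9 (0.22, adjusted p = 0.0738). Its dimmer probe set read 232.1 and 238.5 with TET1 siRNA, against 136.7 and 142.5 with control siRNA, and rose in the fit of single probe sets (0.69, SE 0.11, adjusted p = 0.00185). The probe sets of PSPH therefore had the same sign and differed in size.

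Of the mitochondrial folate enzymes, SHMT2, which turns serine into glycine and a one-carbon unit, fell: 930.9 and 1018.7 with TET1 siRNA, against 1181.3 and 1138.5 with control siRNA (-0.25, SE 0.076, adjusted p = 0.0369). Its other probe sets were at -0.22 and -0.030 and did not pass. MTHFD2, the next enzyme, gave 2298 and 2681 with TET1 siRNA, against 2447 and 2171.2 with control siRNA, with overlap (0.11, adjusted p = 0.432), and a second probe set had the other sign (-0.38, adjusted p = 0.192). ALDH1L2 lay below the filter in all 3 probe sets. Of 5 genes tested in serine, glycine and folate metabolism, 1 rose (20%, against 11.2% of all genes) and 2 fell (40%, against 10.6%). Both falls, of PHGDH and SHMT2, were lost whichever array was left out.

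ASNS, the asparagine synthetase gene and the best known target of ATF4 in amino acid shortage, read 631 and 727.3 with TET1 siRNA, against 571.5 and 571.4 with control siRNA. The groups did not overlap, yet the difference missed the threshold (0.24, SE 0.089, interval 0.045 to 0.43, adjusted p = 0.0777). In proline synthesis the enzymes again went opposite ways. ALDH18A1, which starts the pathway from glutamate, had 1186.9 and 1066.7 with TET1 siRNA, against 946 and 848.2 with control siRNA, and rose by 0.32 (SE 0.084, adjusted p = 0.0175). PYCR1, the reductase that completes it, had 405.5 and 392.6 with TET1 siRNA, against 548.3 and 493.3 with control siRNA, and fell (-0.37, SE 0.090, adjusted p = 0.0128). A second ALDH18A1 probe set, with overlapping groups, was at 0.11 when tested by itself and did not pass (limma adjusted p = 0.468). CTH, which makes cysteine from cystathionine, had 521.7 and 402.1 with TET1 siRNA, against 351 and 356.6 with control siRNA (0.36, SE 0.12, adjusted p = 0.0462), and its second probe set was at 0.41 (adjusted p = 0.0664). CBS, the enzyme before it, was below the filter in all 3 probe sets.

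Of 7 amino acid transporter genes tested 1 rose (14.3%, near the 11.2% of all genes) and none fell, and the median was -0.092. SLC38A1, a sodium-coupled glutamine carrier, read 819.7 and 868.1 with TET1 siRNA, against 623.5 and 618.5 with control siRNA (0.43, SE 0.078, adjusted p = 0.00216). A second probe set of it rose equally when tested by itself (0.45, adjusted p = 0.0064), and the next was at 0.22 (adjusted p = 0.369). SLC38A2, its amino-acid-regulated relative, did not pass by its brightest probe set (4286.8 and 4550.1 with TET1 siRNA, 4604.9 and 4815.1 with control siRNA; -0.092, adjusted p = 0.335). Its other probe sets fell slightly when tested singly, to 3872.8 and 3845.5 with TET1 siRNA against 4371.4 and 4486.4 with control siRNA (-0.20, adjusted p = 0.0403) and to 3894 and 3566.7 against 4242.4 and 4378.6 (-0.21, adjusted p = 0.0491).

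The heterodimer of SLC7A5 and SLC3A2 imports leucine and other large neutral amino acids. SLC7A5 read 235.8 and 277.7 with TET1 siRNA, against 314.9 and 318.8 with control siRNA (-0.29, adjusted p = 0.0742), and SLC3A2 read 263 and 341.9 against 194.1 and 266.8 (0.37, adjusted p = 0.107). Neither passed, and the signs were opposite. SLC7A1, a cationic amino acid carrier (0.12, adjusted p = 0.314), and the neutral carriers SLC1A5 (-0.21, adjusted p = 0.256) and SLC1A4 (-0.37, adjusted p = 0.245, dim) did not pass either. The glycine transporter gene SLC6A9 lay below the filter.

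Of the 12 tRNA synthetase genes tested, 3 rose and 1 fell (25% and 8.33%, against 11.2% and 10.6% of all genes), with a median of 0.17; 9 of the 12 differences were above 0, against 6341 of the 12389 genes tested. GARS1, the glycyl-tRNA synthetase, read 1229.8 and 1087.5 with TET1 siRNA, against 803.9 and 830.9 with control siRNA, and had the lowest adjusted p on the list (0.49, SE 0.081, adjusted p = 0.00128). SARS1, the seryl-tRNA synthetase, had 1341.9 and 1235.9 with TET1 siRNA, against 960.2 and 968.1 with control siRNA (0.41, SE 0.074, adjusted p = 0.00215), with a dim second probe set at -0.15 (adjusted p = 0.636). IARS1, the isoleucyl-tRNA synthetase, had 2530.5 and 2686.6 with TET1 siRNA, against 2167.9 and 2183.6 with control siRNA (0.26, SE 0.065, adjusted p = 0.014). In all 3 the groups did not overlap, and the gap between groups was wider than the gap between the arrays of either group.

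CARS1, the cysteinyl-tRNA synthetase, went the other way, with 1097.8 and 1124.8 with TET1 siRNA, against 1269.7 and 1318.9 with control siRNA (-0.22, SE 0.070, adjusted p = 0.0462). All 4 of its probe sets above the filter were below 0, from -0.38 to -0.17. The windows of CARS1, which fell, and of IARS1, which rose, hold TTGCATCA near the start. This pair was named after the values were seen, and the CARS1 call was lost whichever array was left out. Any link of the letters to expression was not tested. TARS1 (0.26, adjusted p = 0.0722), NARS1 (0.18, adjusted p = 0.065), AARS1 (0.18, adjusted p = 0.192) and LARS1 (0.17, adjusted p = 0.124) did not pass. They had separate groups with TET1 siRNA above, as did 30.9% of all genes tested. The other LARS1 probe sets differed in sign (0.12, -0.11 and 0.053) and did not pass. WARS1 depended on the probe set: the brighter was at 0.056 (adjusted p = 0.755), and the other, with 239.6 and 244.3 against 179.8 and 177.2, rose when tested by itself (0.41, adjusted p = 0.0229). EPRS1 (0.032), VARS1 (-0.048) and YARS1 (-0.16) had adjusted p of 0.83, 0.795 and 0.199.

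The genes for receptors and secreted proteins added no call. STC2, a secreted glycoprotein induced through ATF4, read 93.5 and 100 with TET1 siRNA, against 78.4 and 80.1 with control siRNA (0.24, adjusted p = 0.269). DDR2, a collagen receptor, was dim (22.8 and 30.5 with TET1 siRNA, 41 and 43.9 with control siRNA; -0.46, adjusted p = 0.137). VLDLR, a lipoprotein receptor that ATF4 can induce, lay below the filter.

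**Figure D3:**
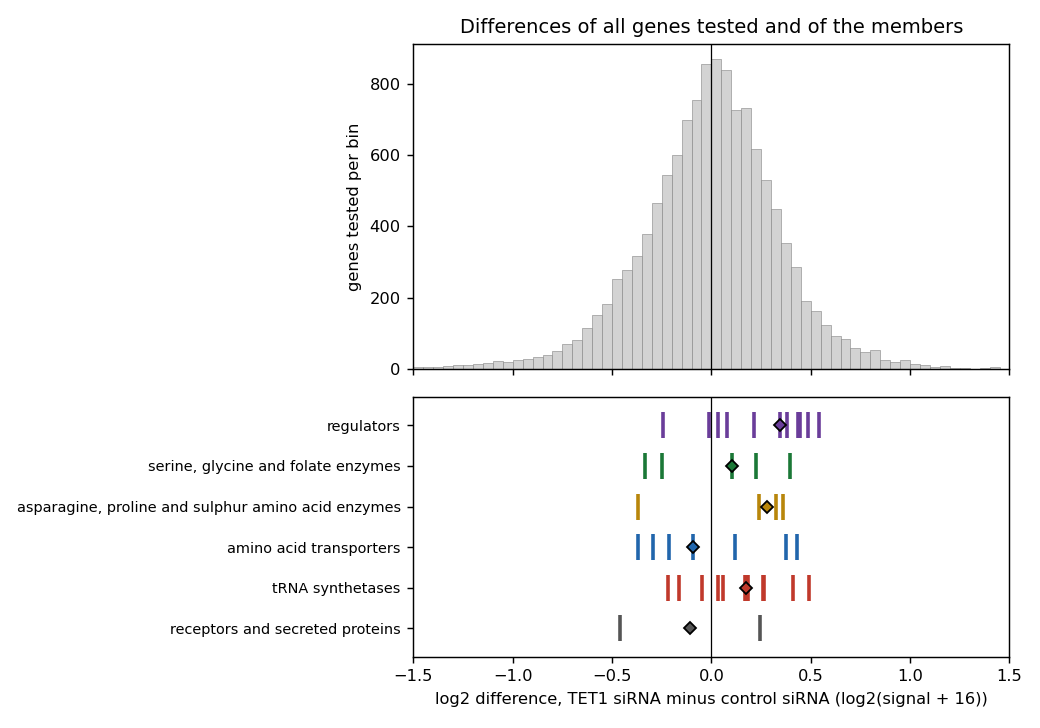
Top, histogram of the log2 differences of all 12389 genes tested (bins of 0.05; values beyond 1.5 either way are outside the axis); bottom, the 41 genes by role, a tick each, with the median of each role as a diamond. The medians run from -0.11 (receptors and secreted proteins, 2 genes) to 0.35 (regulators, 11 genes), and every tick lies within the bulk of the histogram.

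Tested probe set by probe set, 74 of the 99 lay above the filter; 13 rose and 5 fell, against 8.39% and 8.96% of all 23352 probe sets tested. Among those 23352, both TET1 siRNA arrays lay above both control arrays in 28.1% and below them in 28.7%. No gene of the list had probe sets past the threshold in opposite directions. Of the 12 genes that rose, 9 had further probe sets above the filter, 11 in all, of which 6 had the same sign (1 past the threshold) and 5 the opposite sign (none past the threshold). The opposite signs were those of ATF3, EIF2AK4, SARS1 and TRIB3. Of the 4 genes that fell, SHMT2 and CARS1 had 5 further probe sets, all below 0. Of these, 1 passed the threshold, a CARS1 probe set at -0.38 (limma adjusted p = 0.0413). PHGDH, PPP1R15A, CTH and CARS1, called in the gene-level fit, missed the threshold by the same probe set in this wider test (adjusted p = 0.0536, 0.0543, 0.0603 and 0.0585).

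**Figure D4:**
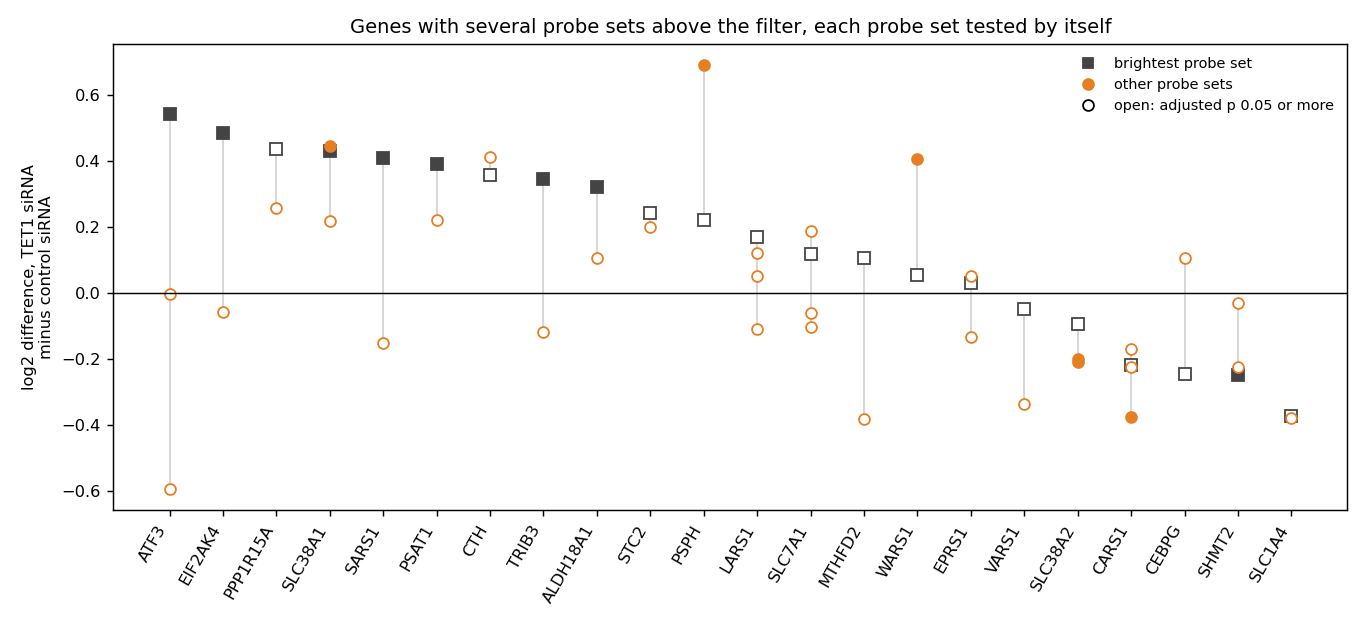
Log2 difference of each probe set of the 22 genes with several probe sets above the filter; squares are the probe set that stands for the gene, circles the others, and open symbols have an adjusted p of 0.05 or more. ATF3 spans -0.59 to 0.54, while CARS1 and SLC38A1 keep 1 sign.

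Other genes of the pathway were read from lists written beside the members. Some genes, among them HERPUD1 and SLC7A11, stand on more than 1 list and are counted on each. Of 33 tested genes of the wider ATF4 and integrated stress response, 12 rose (36.4%, against 11.2% of all genes) and 2 fell (6.06%, against 10.6%), with a median of 0.20. The 2 that fell, named after their values were seen, were KLF4 (-0.51) and UBE2S (-0.56). The largest rises were CREBRF (log2 difference 1.02), a regulator of the unfolded protein response, GDF15 (0.94), a secreted stress cytokine that read 1523.8 and 1652.6 with TET1 siRNA against 830 and 803.5 with control siRNA, SQSTM1 (0.81) and the cystine carrier gene SLC7A11 (0.77). These lists hold genes of other stress pathways too; SQSTM1 and SLC7A11 also belong to the oxidative stress response.

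The shares called in the remaining lists are read against the same 11.2% and 10.6% of all genes, and nothing particular to a list is drawn from them. Around eIF2, 4 of 18 genes rose, among them EIF2B1 (0.34) and IMPACT, an inhibitor of GCN2 activation (0.31), while the haem-regulated kinase gene EIF2AK1 fell (-0.35). Of 6 other cytosolic synthetase and complex genes tested, RARS1, the arginyl-tRNA synthetase, rose with 3589.2 and 3585.6 with TET1 siRNA against 2419.1 and 2436.7 with control siRNA (0.56, SE 0.060, adjusted p = 8.26e-05), and FARSB rose by 0.30. The 15 mitochondrial synthetase genes gave 1 rise (FARS2, 0.69) and 2 falls (EARS2, -0.43, and NARS2, -0.28), with a median of -0.038. Cytosolic and mitochondrial synthetases were not tested against each other.

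Further one-carbon genes gave 1 rise and 4 falls of 18, led by GCAT (-0.80) of threonine breakdown, with MAT2A and MTHFD1 at -0.29 each. Genes of proline, glutamine, aspartate and urea metabolism gave 1 rise and 3 falls of 16, among them glutamate dehydrogenase, GLUD1, with 491.5 and 462.3 with TET1 siRNA against 974.6 and 853.4 with control siRNA (-0.91, adjusted p = 4.60e-05). The list of other amino acid carriers, which also holds SERINC genes, gave 5 rises and 3 falls of 26. The largest beside SLC7A11 were SLC6A6, a taurine carrier (-1.10), the cationic carrier SLC7A2 (-1.07) and SERINC1 (0.72). In amino acid sensing by mTORC1, 7 of 38 rose and 5 fell (18.4% and 13.2%), including CASTOR2, an arginine sensor paralogue (1.36), the kinase gene MTOR itself (-0.95, dim), WDR24 (0.84) and SESN3 (-0.70). The IRE1 and ATF6 arms of the unfolded protein response gave 3 rises and 3 falls of 19, with HERPUD1 (0.54) and DNAJB9 (0.42) up and PDIA4 (-0.48) and SDF2L1 (-0.38) down.

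**Figure D5:**
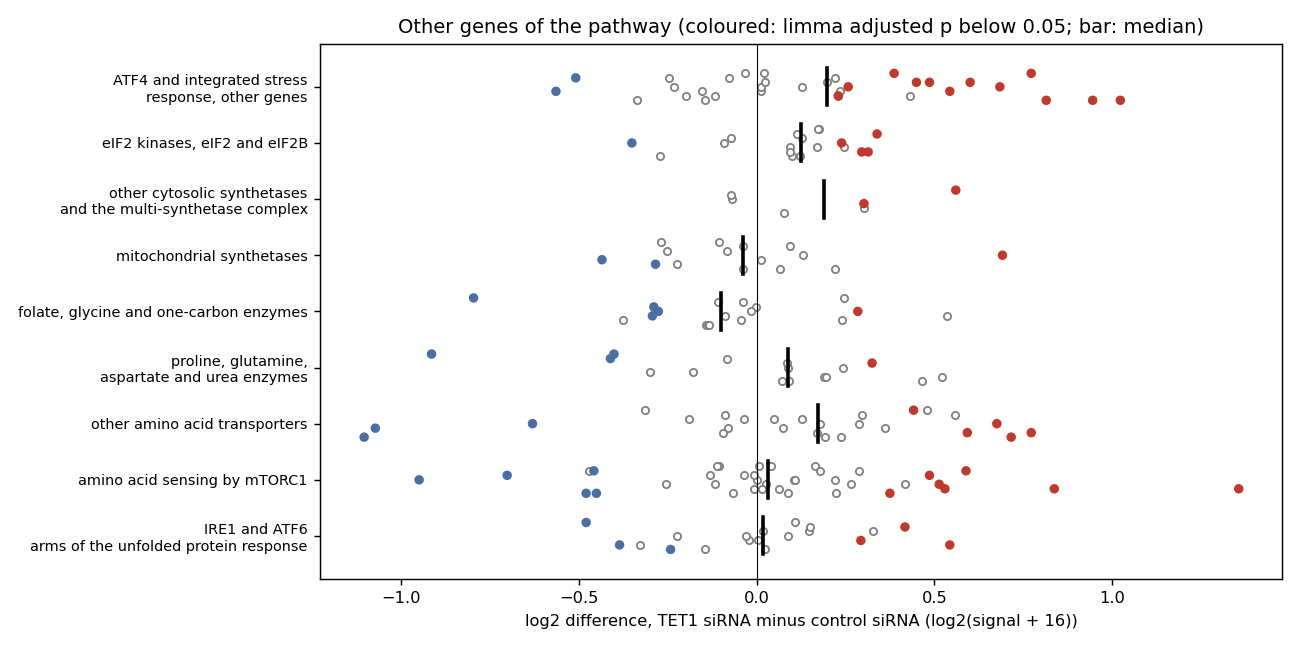
Log2 differences of the genes in 9 further lists of the pathway, a point a gene, coloured where the limma adjusted p was below 0.05, with the median of each list as a bar. Medians run from -0.099 (folate, glycine and one-carbon enzymes) to 0.20 (wider ATF4 and integrated stress response).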

How the data were processed

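Labelled cRNA, primed with oligo(dT) per the labels' protocols, was hybridised to 1 Affymetrix array a sample. As deposited, every probe set carries 1 linear intensity on an array. Each array has the same 2%-trimmed mean (100.01), so the authors had scaled them, which hides any change in total mRNA. The software and the background correction are not given in the sources used; the background step bears most on dim probe sets. Of 54675 probe sets 62 controls were left out, and 41091 have 1 gene symbol. The groups were compared on log2(signal + 16) values by limma (version 3.58.1, under R 4.3.3; eBayes with trend, two-sided, Benjamini-Hochberg over 12389 genes or 23352 probe sets). The fit has 2 residual and 9.38 prior degrees of freedom; an exact permutation test of 2 against 2 cannot go below p = 0.333. The filter was a mean log2 value of 4.86. A log2 difference on this scale understates the change of dim genes. Figures used matplotlib 3.10.9.

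The members, the lists and the search letters were chosen with earlier results of these data known, so no set was tested. The naming rule gives values in every array for members past the threshold and for ATF4, DDIT3, ASNS and PHGDH. It also gives both probe sets where 1 passed and another had the opposite sign, and up to 4 genes past the threshold from each further list. Other members' signals and probe sets and the marker genes were chosen after their values were seen. Alternatives were other normalizations, pseudocounts, filters, variance models, probe set choices, a 1.5-fold minimum, the replicate block and leaving out each array.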

Additional observations from a re-analysis of the deposited data

Results flagged for a closer look

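Probe sets outside the comparison gave a signal above the control arrays: the 3 annotated to MIR6758 and MARS1 together. Their log2 differences were 0.16, 0.14 and 0.36. The first read 536.1 and 622.9 with TET1 siRNA, against 534.8 and 497 with control siRNA, and the second read 577.5 and 614 against 526.2 and 549.8. The last is dim, with 16.6 and 15.5 against 11.2 and 7. In all 3 both TET1 siRNA arrays lay above both control arrays, as in 28.1% of the probe sets tested singly. No test was run on them, and the signal cannot be given to 1 of the annotated genes.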

How the results depend on the processing

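Of the 16 called genes, 14 kept their direction in every alternative, and 7 passed the threshold in 10 or more of up to 14 alternatives with moderated variance: EIF2AK3, PSAT1, PYCR1, SLC38A1, GARS1, IARS1 and SARS1. PHGDH passed in 4. The filters, variance models and replicate block leave a called gene's difference as it was, so they could not turn its sign. GARS1, IARS1 and PYCR1 have 1 probe set each, so the other probe set choices could not change their differences either. Of the 25 genes not called, 4 passed in some alternative (PSPH, SLC3A2, NARS1 and TARS1). The main counts were 12 genes higher and 4 lower of the list, 1393 and 1313 of all genes, and 13 and 5 probe sets of the list. With no filter they were 6 and 1, 899 and 847, and 8 and 0. With no variance trend they were 0 and 0, 437 and 535, and 1 and 0. With no moderation all were 0 (limma; 2671 genes, 14 of the list, had an unadjusted p below 0.05, and the lowest adjusted p was 0.0898), and the TET1 difference of -1.28 did not pass (adjusted p = 0.0999). With the mean of all probe sets the list gave 3 and 2, and 772 of all genes were higher. Without probe sets marked _x_at or _s_at the list gave 6 and 0, and 882 of all genes were higher. At 1.5-fold or more the list gave 0 and 0, and all genes 425 and 532. Median centring gave 1 gene and 1 probe set of the list lower, and pseudocount 1 gave 3 probe sets lower. The list's median (0.18) was 0.21 with median centring and, averaging all probe sets of a gene, 0.13.

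Leaving out each array in turn gave 7 to 9 genes of the list higher and 0 to 1 lower, 813 to 1157 of all genes higher and 879 to 983 lower, 8 to 12 probe sets higher and 0 to 1 lower, and a median of 0.13 to 0.19. Same-numbered arrays did not deviate together (correlation 0.00583). With 2 arrays a group, this cannot show whether same-numbered arrays were handled together. The replicate block gave 13 genes higher and 3 lower, and 15 probe sets higher and 2 lower.

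Signs turned for ATF3 (-0.017 with the mean of all probe sets, -0.0029 without _x_at and _s_at), EIF2AK4 (-0.058 without _x_at and _s_at), MTHFD2 (-0.14 with the mean, -0.0044 to 0.22 on leaving out an array), EPRS1 (-0.016 with the mean, -0.026 to 0.090 on leaving out an array, with -0.021 without control siRNA replicate 1) and YARS1 (0.19 with the mean). They also turned for CEBPB (0.024 with median centring, -0.055 to 0.032 on leaving out an array), ATF5 (-0.091 without TET1 siRNA replicate 1, -0.13 without control siRNA replicate 1), VARS1 (0.032 without control siRNA replicate 2) and WARS1 (-0.025 to 0.14 on leaving out an array). The cause was not tested. Having 2 arrays a group limits all of these values, and ATF5 was also near background.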

Other observations

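A probe set annotated to PHGDH together with MZT2A and MZT2B, which entered no comparison, read 1144 and 1139.6 with TET1 siRNA, against 1425.4 and 1256.5 with control siRNA (log2 difference -0.23, not tested). It has the sign of the PHGDH probe set that fell, but its signal cannot be given to 1 of the annotated genes. Both TET1 siRNA arrays lay below both control arrays, as in 28.7% of the probe sets tested singly.

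Of the 17 genes whose promoter windows hold TGATGNAA, 4 rose (ATF3, GARS1, IARS1 and SLC38A1), 1 fell (CARS1), 11 did not pass and MARS1 has no value. Of the 12 genes that rose, all with a window, 4 hold the letters (33.3%), and of the 21 that did not pass and have a window, 11 do (52.4%). This was counted after the values were seen and was not tested.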
